A study of Mus musculus with 8 samples.

Results

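Mouse CD8+ T cells that received 1 h of interferon beta (IFNβ) before 1 h of T cell receptor (TCR) stimulation were compared with cells that had the 1 h of stimulation alone. The comparison rests on 2 of the 8 arrays of the series and gives, for each gene, the log2 scaled signal with IFNβ minus that without it. Of 21240 genes well above background on at least 1 of the 8 arrays, 17166 were well above background on both arrays of the pair and have a measured difference. A further 1033 genes were well above background on the IFNβ array alone and 723 on the other array alone, and for these only a bound can be given.

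The series used single-colour mouse oligonucleotide arrays to ask how type I interferon alters CD8+ T cell responses. All arrays carry RNA of CD8+ T cells purified from spleens of C57BL6 mice with the OT-I TCR transgene, whose T cells share 1 receptor for the peptide SIINFEKL of ovalbumin, presented by H-2Kb. The TCR 1 h cells were stimulated for 1 h with streptamers, multimers carrying H-2Kb with SIINFEKL (1 µg per reaction), and the IFNβ 1 h + TCR 1 h cells had 1 h of IFNβ before the same 1 h of stimulation. The other arrays, used here only for context, are of untreated cells (2 arrays), cells given IFNβ for 2 h or 7 h, cells stimulated for 6 h, and cells given IFNβ for 1 h and stimulated for 6 h. The labels state a purity of 90 to 97% by flow cytometry for CD8α, B220 and CD11c, and give neither the animals' age, nor the dose of IFNβ, nor whether cells of several mice were pooled, nor whether IFNβ stayed in the medium during stimulation.

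Each treated condition had 1 array, so the difference within the pair has no replicate check and no p-value. As a measure of spread, the 2 untreated arrays differed by an SD of 0.20 in log2 over 16838 genes, and 97 of these (0.576%) differed at least 2-fold. Nothing in the labels says whether the untreated arrays came from separate animals. The 2 arrays of the pair carry opposite names in the deposited value table and in the scanner files: the table's column for each is an exact multiple of the scanner file of the other. The table's naming is used throughout, and under the scanner files' naming every sign given here turns around. The antiviral genes are low in all 4 arrays named as without IFNβ only under the table's naming. Their direction in the pair cannot serve both as support for that naming and as a separate sign of a response to IFNβ. The columns of the 6 other arrays matched their own scanner files. There the listed antiviral effectors had median log2 differences with IFNβ of 4.10 (IFNβ 2 h against untreated) and 3.03 (pair at TCR 6 h). Which naming of the pair is right was not tested. Both arrays lay on the same slide, with 27478 (TCR 1 h) and 27893 (IFNβ 1 h + TCR 1 h) of 43379 non-control spots well above background.

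The arrays held the transcripts of the labelled cell type, with all 10 T cell markers well above background on both and a summed signal of 1050390 with TCR alone and 766968 with IFNβ and TCR. Cd8b1, a chain of the CD8 co-receptor, stood at a scaled signal of 232308 with TCR alone and 205258 with IFNβ and TCR, and Cd4 at 143 and 91.8. Summed signals of the other marker lists were close between the arrays or lower with IFNβ, at 12015 and 10749 for B cells (10 of 14 markers well above background on both arrays), 33970 and 24726 for class II presenting cells (12 of 14), 11577 and 8977 for myeloid cells (13 of 17) and 105256 and 82998 for NK cells (10 of 14). Erythroid markers (7 of 9) summed to 8637 and 9017 and CD4 T cell markers (7 of 7), among them the activation-linked Il2ra, to 14625 and 18713. Ncr1, a defining NK cell marker, was at the floor of 15 on both arrays. Myeloid markers had 3 of 13 members at least 2-fold lower, NK markers 1 of 10 higher (Gzma), and B cell and erythroid markers none past 2-fold (0 members). The part of other cells in the differences below was not tested, and in bulk RNA fewer cells of a type cannot be told apart from less RNA per cell.

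Type I interferons bind the receptor of Ifnar1 and Ifnar2, whose kinases Jak1 and Tyk2 activate transcription factors such as Stat2. Stat2 acts with Irf9 in a complex that binds the interferon-stimulated response element in the promoters of antiviral genes. The TCR acts through calcium and NFAT, MAP kinases and AP-1, and NF-kB, which switch on immediate early transcription factors within minutes and then cytokine genes such as Il2. In CD8+ T cells interferon given before or with antigen is known to alter effector function, and the order of the signals matters.

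The promoters of the genes with the largest differences were searched for the letters of known elements. RefSeq windows from 250 bases before to 50 after the start (GRCm38.p6) were read on both strands for the letters of the interferon-stimulated response element, GAAA, any 2 bases and GAAA again. They were found in 3.99% of the windows of all 27025 genes with a window, in 28 of 53 genes (52.8%) at least 16-fold higher with IFNβ, in 54 of 192 (28.1%) at least 4-fold higher, in 27 of 436 (6.19%) 2- to 4-fold higher, in 9 of 444 (2.03%) at least 2-fold lower and in 0 of 67 at least 4-fold lower. Single genes were read over the 250 bases before the start only, whereas the shares of groups cover the whole windows. Of the 12 genes with the highest differences, 8 had a window and 6 of these held the letters in those 250 bases. The 250 bases before the start of Ifit3 (chr19:34583279-34583528, plus strand), Ifit1 (chr19:34640639-34640888, plus strand) and Rsad2 (chr12:26456453-26456702, minus strand), shown as examples chosen from the 6 that held the letters, have the matches in capitals. The same 250 bases of Cmpk2 and Oasl1, also among the 12, held none. The same stretch of Il2 (chr3:37125955-37126204, minus strand), the gene with the lowest difference, held no match to these letters and has in capitals its 2 matches to GGAAAA, the core letters bound by NFAT. Il2 was the exception in this, since of the 12 lowest genes 11 had a window and 1 of these held GGAAAA in the 250 bases before its start.
Ifit3: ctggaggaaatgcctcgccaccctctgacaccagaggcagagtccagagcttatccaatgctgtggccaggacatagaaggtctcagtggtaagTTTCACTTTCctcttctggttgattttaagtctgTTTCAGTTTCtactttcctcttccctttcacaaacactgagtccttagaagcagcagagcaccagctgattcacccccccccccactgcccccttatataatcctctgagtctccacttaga
Ifit1: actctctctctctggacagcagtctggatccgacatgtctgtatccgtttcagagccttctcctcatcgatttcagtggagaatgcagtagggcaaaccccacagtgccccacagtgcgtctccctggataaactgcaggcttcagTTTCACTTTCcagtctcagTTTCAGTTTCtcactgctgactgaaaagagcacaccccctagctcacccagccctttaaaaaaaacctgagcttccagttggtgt
Rsad2: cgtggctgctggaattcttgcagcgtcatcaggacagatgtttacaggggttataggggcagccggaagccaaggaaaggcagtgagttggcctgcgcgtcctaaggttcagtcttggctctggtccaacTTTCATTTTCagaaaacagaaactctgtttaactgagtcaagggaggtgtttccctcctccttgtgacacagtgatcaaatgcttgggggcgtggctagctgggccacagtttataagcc
Il2: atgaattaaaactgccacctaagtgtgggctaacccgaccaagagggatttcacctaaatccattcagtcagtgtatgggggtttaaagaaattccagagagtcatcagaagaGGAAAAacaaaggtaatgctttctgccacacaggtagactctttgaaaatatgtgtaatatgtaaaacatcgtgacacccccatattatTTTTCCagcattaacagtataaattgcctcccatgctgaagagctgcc
A match to GGAAAA was held by 26.1% of all windows, by 25.5% of the genes at least 4-fold higher and by 22.4% of those at least 4-fold lower, and a match can overlap one to the interferon-stimulated element. The AP-1 letters TGANTCA were in 8.97% of all windows, in 13% of the genes at least 4-fold higher, in 7.66% of those at least 2-fold lower and in 13.4% of those at least 4-fold lower. The EGR letters GCGNGGGCG were in 6.27% of all windows, in 8.85% of the genes at least 4-fold higher, in 14.2% of those at least 2-fold lower and in 11.9% of those at least 4-fold lower. The letters of the gamma-activated sequence, TTCNNNGAA, were in 9.55% of all windows and in 13.5% of the genes at least 4-fold higher. They were in 4.95% of those at least 2-fold lower and in 5.97% of those at least 4-fold lower. In the 53 genes at least 16-fold higher the shares were 15.1% for these letters, 34% for GGAAAA, 18.9% for AP-1 and 0% for EGR. In the 10804 windows of genes well above background on both arrays the interferon-stimulated element had 3.77% and the gamma-activated sequence 8.55%. The shares there were 24.1% for GGAAAA, 6.47% for AP-1 and 11.2% for EGR. Such matches describe the letters in the window only.

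IFNβ before the TCR stimulus went with higher signal of the antiviral programme and with lower signal of many genes that the TCR alone had made abundant. Among 17166 genes, 1345 (7.84%) were at least 2-fold higher with IFNβ and 715 (4.17%) at least 2-fold lower. The higher group held the larger differences: 423 genes (2.46%) were at least 4-fold higher and 89 (0.518%) at least 4-fold lower, and 85 against 2 passed 16-fold. The median gene stood at -0.11 and the SD over genes was 0.83, against 0.20 between the untreated arrays.

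**Figure D1:**
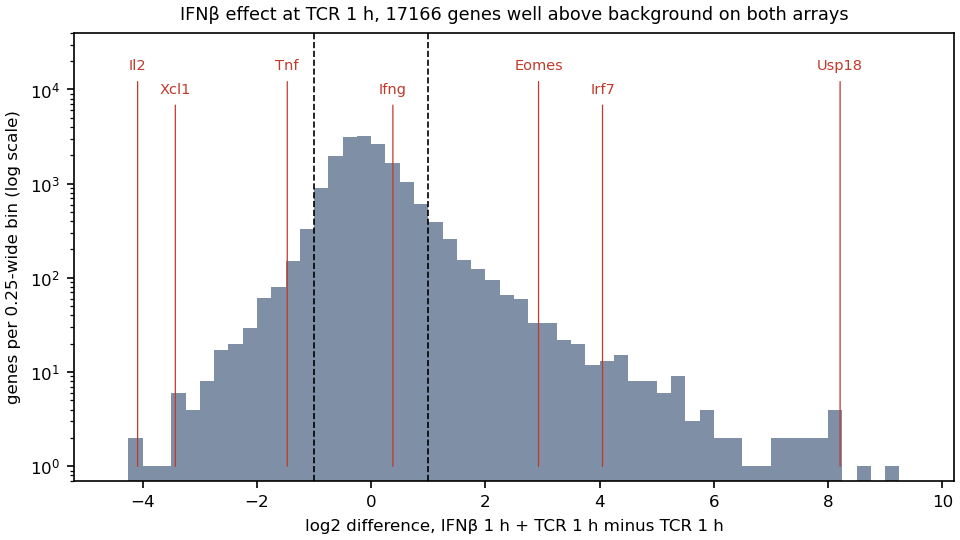
Histogram of the log2 difference (IFNβ 1 h + TCR 1 h minus TCR 1 h, x axis) for 17166 genes, with the number of genes per bin on a log axis and dashed lines at a 2-fold difference either way. The right tail ends at Ifit3b with 9.13, while the left tail ends at Il2 with -4.09.

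The antiviral effectors, proteins that block steps of virus growth, stood highest. Usp18, the protease that removes ISG15 from proteins and damps the interferon receptor, gave a scaled signal of 324 with TCR alone and 95847 with IFNβ and TCR, a 296-fold difference (log2 8.21). Its signal was 319 and 303 on the untreated arrays and 90976 and 125303 after IFNβ for 2 h and 7 h (probe at chromosome 6, 121220513 to 121220572, mm9). Usp18 thus stood at the untreated level after TCR alone and at the level of IFNβ alone when both were given. Ifit3 went from 681 to 198303 (291-fold), beside 1295 and 1204 in untreated cells and 202661 after IFNβ 2 h. Ifit3b, a near-identical copy of Ifit3 whose probes may share targets, had the highest difference of all, at 9.13. Mx1 and Mx2, dynamin-like GTPases that trap viral capsids, differed by 7.87 and 8.22 and Rsad2 (viperin), which makes a chain-terminating nucleotide, by 7.62. Of 41 listed antiviral effectors 36 were well above background on both arrays, 33 of them at least 2-fold higher and 0 lower, with a median of 5.46 against -0.11 over all genes. The 3 others were Ifi27 at -0.21, and Ifitm1 and Ifitm2 at -0.38 each. The median of the same list was 4.10 after IFNβ 2 h without TCR and 3.03 in the pair at TCR 6 h.

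All 17 measured interferon-inducible GTPases, a list that holds Mx1 and Mx2 beside guanylate-binding proteins and immunity-related GTPases that attack the vacuoles of intracellular pathogens, were at least 2-fold higher, from 2.22 for Gvin1 to 8.22 for Mx2 with a median of 4.35. Iigp1, an immunity-related GTPase, had 188 without and 37101 with IFNβ, and 12818 after IFNβ 2 h. At TCR 6 h it was high in both arrays, at 7485 without and 11735 with IFNβ, and the list's median there was 0.65. The ISG15 system, which tags proteins with a ubiquitin-like modifier, was higher in 6 of 6 members (median 4.33), with Isg15 itself at 4742 without and 204734 with IFNβ. Of the nucleic acid sensors 14 of 19 were higher and 0 lower (median 3.67), led by the RIG-I family helicases Dhx58 at 5.75 and Ifih1 at 5.60 and by the endosomal RNA sensor Tlr7 at 5.27. The PARP family split into 5 of 8 higher members, with Parp12 at 5.67, Parp14 at 4.83 and Parp9 at 4.38, and 3 within 0.31 of no difference, Parp1, Parp2 and Parp3.

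**Figure D2:**
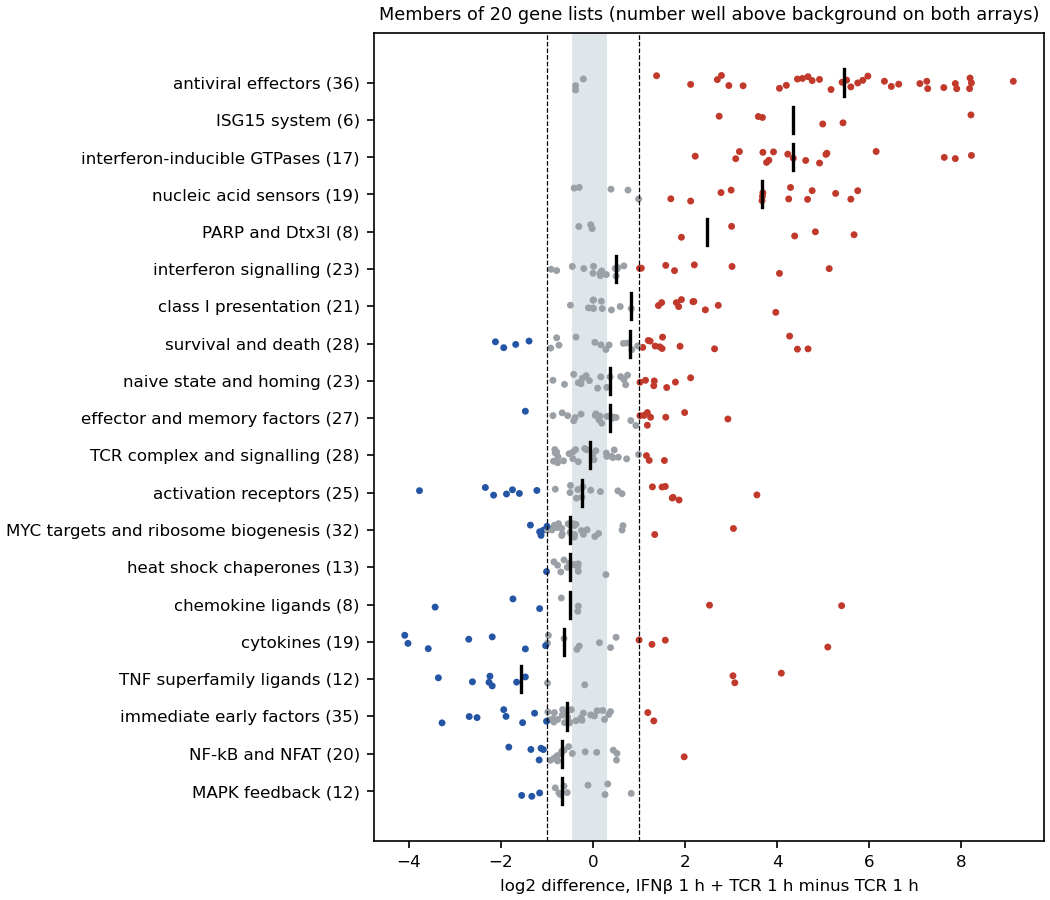
Each point is 1 gene placed by its log2 difference in the pair (x axis), in rows for 20 gene lists; red and blue points passed 2-fold, black bars are list medians and the grey band holds the middle quartiles of all genes (-0.44 to 0.29). Antiviral lists lie to the right with medians of 2.46 to 5.46, and TNF superfamily ligands have the lowest median, -1.56.

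Among the components of interferon signalling, the transcription factors were higher and the receptor and kinases mostly were not. Irf7, which amplifies interferon production, stood at 1723 without and 28641 with IFNβ (16.6-fold), and at 1889 and 1857 in untreated cells. Stat2 went from 363 to 12705 (5.13), lower with TCR alone than the untreated 1024 and 1061. Irf9, the DNA-binding partner of Stat2, stood at 1.77. Ifnar1 was level at 13423 and 13457 (0.00) and Jak1 at 0.01, and Ifnar2 was at 1.01 by one probe and 0.24 by the other. In the whole list 8 of 23 members were at least 2-fold higher and 0 lower (median 0.50). The feedback inhibitor Socs1 was high in both arrays, at 27784 without and 28931 with IFNβ (0.06), beside 5077 and 5056 in untreated cells and 46944 after IFNβ 2 h. Socs1 was therefore at a like level after TCR alone and after both stimuli. Socs3 was 2.42-fold higher, and its signal of 15427 with both stimuli lay below the 47634 of IFNβ 2 h alone.

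Class I presentation, the route by which peptides reach CD8+ T cells, had 10 of 21 members at least 2-fold higher and 0 lower (median 0.83). The higher members were transporter, tapasin and immunoproteasome genes, the heavy chains H2-T22, H2-T24 and H2-M3, and Nlrc5, while other processing members such as Erap1 (0.83), Psme1 (0.40) and Calr (-0.49) did not pass. Tap1, the peptide transporter, stood at 4215 without and 27681 with IFNβ (6.57-fold). Nlrc5, the transactivator of class I genes, had 597 and 3234 (5.41-fold), while IFNβ 2 h alone gave 619 beside 821 and 825 in untreated cells and IFNβ 7 h gave 5577. H2-T24, a non-classical class I gene, differed by 3.97, the highest of the list. The classical heavy chains H2-K1 and H2-D1 were both at 0.00 and B2m, their light chain, at 0.01.

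The growth factor genes Il2, Csf2 and Il3 were among the 12 genes with the lowest differences, beside genes of other kinds such as Cd160, G0s2 and Nr4a3. Il2, the T cell growth factor, stood at 19252 with TCR alone and 1133 with IFNβ and TCR, a 17-fold lower signal (log2 -4.09; probe at chromosome 3, 37024756 to 37024815, mm9). Untreated cells gave 45.9 and 50.1, so both stimulated arrays were above rest. At TCR 6 h, Il2 was at 71358 without and 57190 with IFNβ, a difference of -0.32. Csf2 (GM-CSF) had 796 and 48.9 (-4.02), with both untreated arrays at the floor of 15, and 12656 and 14906 at 6 h. Il3 had 1591 and 133 (-3.58), again with both untreated arrays at the floor, and 4818 and 4168 at 6 h. Each of these 3 growth factor genes was thus over 10-fold lower with IFNβ at 1 h and within 2-fold at 6 h. Tnf, an inflammatory cytokine, differed less, with 77278 and 27928 (-1.47), beside 176 and 181 in untreated cells.

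Ifng, the interferon of effector T cells, did not share this pattern. Its signal was 101926 with TCR alone and 132698 with IFNβ and TCR (0.38), from 287 and 274 in untreated cells, and it was 63799 and 147456 at TCR 6 h. Ifng stood high in all 4 stimulated arrays. In the cytokine list 7 of 19 members were at least 2-fold lower and 4 higher (median -0.63). Csf1, the macrophage growth factor, was the highest at 71.1 without and 2435 with IFNβ (5.10), beside 787 after IFNβ 2 h.

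Of 8 measured chemokine ligands 2 were at least 2-fold higher with IFNβ, 3 lower and 3 within 2-fold. Xcl1, which draws cross-presenting dendritic cells, stood at 96340 without and 8956 with IFNβ (10.8-fold lower), from 283 and 296 in untreated cells, and at 283541 and 366913 at TCR 6 h. Ccl3, an inflammatory chemokine, had 196930 and 58762 (3.35-fold lower), from 135 and 128. Cxcl10, a ligand of Cxcr3, had 3778 and 159054 (42.1-fold higher), beside 625 and 612 in untreated cells and 39662 after IFNβ 2 h. Cxcl10 was above rest after either stimulus and highest of these 5 arrays after both, but IFNβ 7 h alone gave 192797.

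TNF superfamily ligands, by which T cells signal to other immune cells, had 7 of 12 members lower and 3 higher, with the lowest median of the lists in the plot by list (-1.56). Tnfsf9 (4-1BB ligand) stood at 3112 without and 304 with IFNβ (10.2-fold lower), and Cd40lg at 544 and 88.5, with the untreated arrays of Cd40lg at the floor. The higher members were Tnfsf10 (TRAIL), an interferon-induced death ligand, with 69 and 1176, Tnfsf4 (OX40 ligand) with 60.1 and 508, and Tnfsf8 (CD30 ligand) at 3.04. Tnfsf10 was at 1908 after IFNβ 2 h alone, whereas Tnfsf4 was at 42 there and 56.1 and 60.1 in untreated cells.

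**Figure D3:**
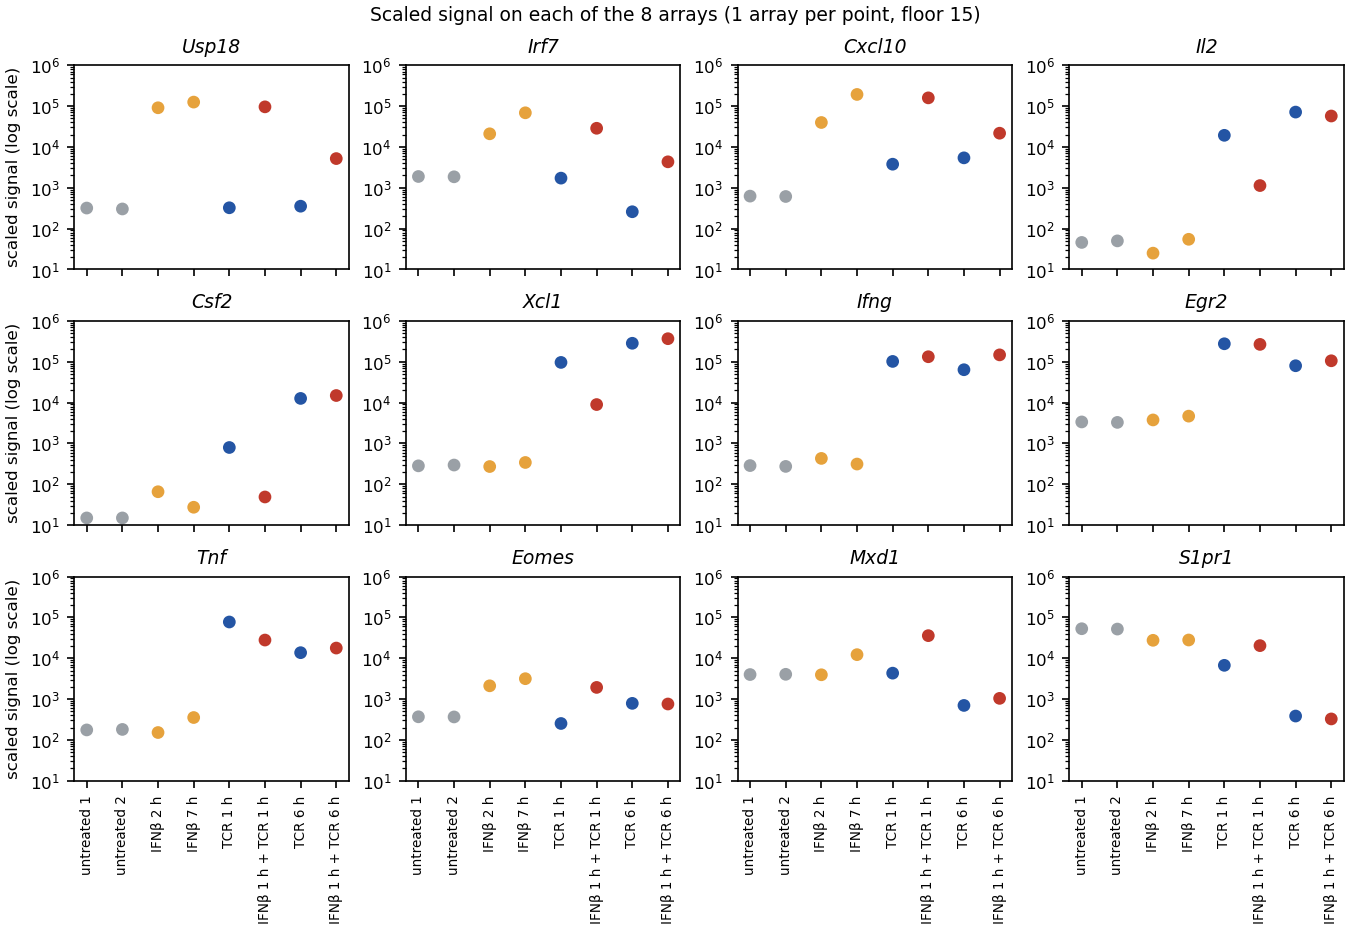
Scaled signal (log axis) of 12 genes on the 8 arrays, 1 point per array, with untreated in grey, IFNβ alone in orange, TCR alone in blue and IFNβ with TCR in red. Il2, Csf2 and Xcl1 lie lower in red than in blue at 1 h and close together at 6 h, whereas Ifng and Egr2 lie close together at 1 h.

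Immediate early factors were unequal within families. The EGR factors, targets of the MAP kinase path, were all within 2-fold, Egr3 at -0.21 and Egr4 lowest at -0.77. Egr1 stood at 306270 without and 259834 with IFNβ (-0.24), and Egr2 at 275686 and 266195 (-0.05), beside 3362 and 3276 for Egr2 in untreated cells. Of the NR4A nuclear receptors, Nr4a1 differed by -0.47 and Nr4a2 by -1.53, and Nr4a3 stood at 4725 and 486 (-3.28), from 18.9 and 20.1 in untreated cells. Among the AP-1 subunits Fos was at -0.84, Fosl1 at -2.52 and Fosb at -2.69, while Jun was at 1.19, with 597 and 1362. Jun was higher after IFNβ 2 h alone, at 3123. Over the list 8 of 35 members were at least 2-fold lower and 2 higher (median -0.57), the other higher one being Klf2, whose other probe gave -0.21.

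The lists of downstream transcription factors and feedback genes had more lower than higher members. In the NF-kB and NFAT list 5 of 20 members were lower and 1 higher (median -0.68). Rel, the NF-kB subunit that drives Il2 in T cells, stood at 2018 without and 569 with IFNβ (3.55-fold lower), from 86.6 and 90.2. Nfkbid, a nuclear IκB protein, had 65194 and 25615 (2.55-fold lower). The higher member was Ppp3cc, a calcineurin catalytic subunit, with 4777 and 18788, and its 3 probes lay between 1.15 and 1.98. In the MAPK feedback list 3 of 12 were lower and 0 higher (median -0.67), with Spry1, an inhibitor of the Ras path, at 28473 and 9721. The components of the TCR complex and its proximal signalling were nearer to no difference, with 3 of 28 higher, 0 lower and a median of -0.07; Lck, the kinase that starts the cascade, was at -0.64.

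The share of lower genes was larger among genes that the TCR made more abundant, with genes sorted by TCR 6 h against untreated on arrays outside the pair. Genes at least 2-fold higher after IFNβ 2 h were left out. Of 136 genes at least 16-fold higher after TCR 6 h than in untreated cells, 59 (43.4%) were at least 2-fold lower with IFNβ at TCR 1 h and 8 higher, with a median of -0.81. Of 1100 genes 4- to 16-fold higher, 127 (11.5%) were lower (median -0.49), and of 9095 genes within 2-fold, 245 (2.69%) were lower (median -0.11). Among 1397 genes at least 4-fold lower after TCR 6 h, 68 (4.87%) were lower and 163 higher with IFNβ (median 0.00). The class highest at 6 h thus held the largest share of lower calls. In the pair at TCR 6 h the median of the first class was 0.06, but there the TCR 6 h array also chose the class.

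**Figure D4:**
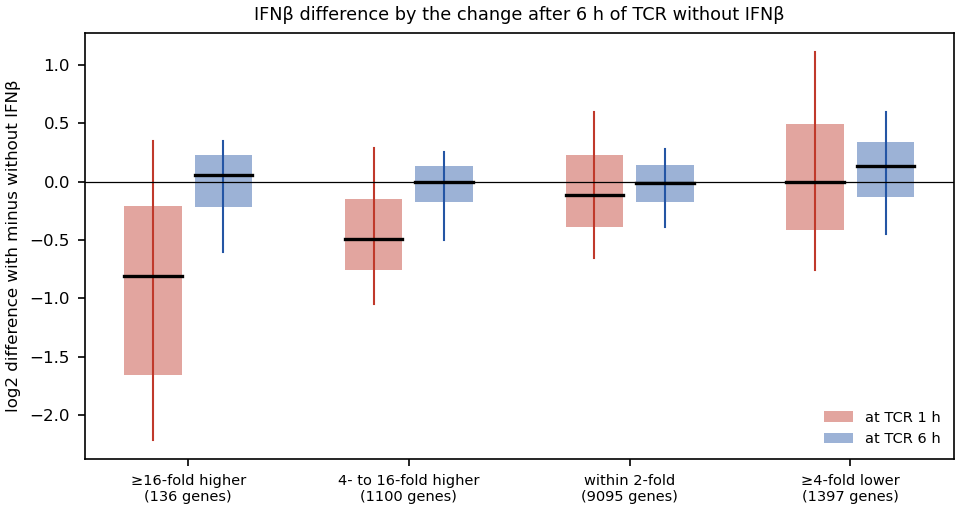
Log2 difference with minus without IFNβ (y axis) at TCR 1 h (red) and TCR 6 h (blue) for genes grouped by their change after 6 h of TCR stimulation without IFNβ; boxes span the quartiles, lines the 10th to 90th percentile and black bars are medians. At TCR 1 h the median goes from -0.81 in the highest class to 0.00 in the lowest class, and at TCR 6 h the medians lie between -0.01 and 0.13.

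In the naive state and homing list 7 of 23 members were at least 2-fold higher with IFNβ and 0 lower (median 0.37). S1pr1, the receptor for egress from lymph nodes, stood at 52876 and 51852 in untreated cells, at 6715 with TCR alone and at 20380 with IFNβ and TCR (3.04-fold higher). At TCR 6 h S1pr1 was at 385 and 327. Txnip, an inhibitor of glucose uptake, had 42003 and 43589 in untreated cells, 2982 with TCR and 10279 with both (1.79, and 0.54 by its other probe). Klf2, the factor that maintains S1pr1, differed by 1.32 by one probe and -0.21 by the other, and Ccr7, the lymph node homing receptor, by 0.75. After IFNβ 2 h alone S1pr1 stood at -0.93 and Ccr7 at -1.02 against untreated, so neither was above rest there. Other members that were low after TCR alone did not pass 2-fold, among them Klf3 at 0.17, Pik3ip1 at -0.15 and Cnr2 at -0.62.

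Surface receptors were found in both directions. Cd160, a co-signalling receptor, stood at 16240 without and 1191 with IFNβ (13.6-fold lower), from 155 and 159, and at 9013 and 13802 at TCR 6 h. Crtam, an adhesion receptor of activated CD8+ cells, had 96467 and 19007, and Cxcr3, the receptor for Cxcl10, 22558 and 4905 (4.6-fold lower). Cd244a, a SLAM family receptor, was higher with 75.2 and 887, and Lag3, an inhibitory receptor, with 70.4 and 305. The early activation marker Cd69 was nearly level at 360623 and 310040, and was above the untreated 13062 and 13213 also after IFNβ 2 h, at 53225. Il2ra, the high-affinity IL-2 receptor chain, was at 1.5, but its 4 probes ran from -0.62 to 1.58. Of 25 activation receptors 7 were higher and 7 lower. Cd274 (PD-L1) stood at 37068 and 57374 (0.63), with 26680 after IFNβ 2 h and 1040 and 1103 at rest.

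Effector genes showed no common direction. Of the granzymes, Gzma was higher with 583 without and 6620 with IFNβ, and Gzmb with 4077 and 12498 (3.07-fold). Gzmc was lower with 2125 and 621 (3.42-fold), and Gzmk and Gzmm were at -0.50 and -0.36. Perforin (Prf1) was lower, with 11873 and 2968, and IFNβ 2 h alone also gave less, 974 beside 3225 and 4733. In the cytotoxic list 3 of 13 members were higher and 3 lower. Eomes, a T-box factor of effector and memory cells, stood at 253 without and 1933 with IFNβ (7.63-fold higher), beside 369 and 366 at rest and 2117 after IFNβ 2 h. Tbx21 (T-bet), the related factor, was level at 12608 and 14361 (0.19), from 273 and 275 at rest. Of 27 effector and memory factors 8 were higher and 1 lower (median 0.37), with Batf, an AP-1 family factor, at 1.99.

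Among survival and death genes 12 of 28 were higher and 4 lower (median 0.80). Xaf1, an antagonist of the caspase inhibitor XIAP, was the highest with 5586 without and 141868 with IFNβ. Mlkl, the executor of necroptosis, had 114 and 2479, and Daxx, a histone chaperone and cell death adaptor, 8184 and 158266. The 4 lower members, named after their values were seen, were the survival genes Bcl2l1 at -2.12 and Bcl2a1b at -1.68, the death receptor Tnfrsf10b at -1.94 and the stress gene Gadd45b at -1.39. The survival gene Bcl2 stood at 1.89, but its 3 probes ran from 0.13 to 1.89.

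Among the genes of the MYC network Mxd1 and Max were higher and Mxd4, like Mxd1 a Myc antagonist, was lower at -1.08. Mxd1, which competes with Myc for Max, stood at 4320 without and 35788 with IFNβ (8.28-fold, log2 3.05, and log2 2.07 by its other probe). Untreated cells had 3994 and 4048 and IFNβ 2 h gave 3942. The combination of IFNβ and TCR thus gave the highest Mxd1 signal of the 8 arrays, with IFNβ 7 h next at 12257. Max was at 1.34, and the further antagonists Mxi1 and Mnt were at -0.84 and -0.21. Myc itself stood at 180853 and 113928 (-0.67), from 2227 and 2350 at rest. In the list of MYC targets and ribosome biogenesis 4 of 32 members were lower and 2 higher, with a median of -0.50. Rbl1 (p107), a relative of the retinoblastoma protein, was the highest cell cycle gene with 1827 and 16379, and cell cycle genes as a list lay at -0.04. Glycolysis and nutrient uptake had 3 of 23 members lower and 1 higher (median -0.54), among them the lactate exporter Slc16a3 at -1.67. Heat shock chaperones had 1 of 13 lower and 0 higher (median -0.51), and amino acid and unfolded protein stress 3 of 20 lower and 0 higher (median -0.27), the transcription factor Atf4 among them at -1.03.

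Genes above background on only 1 array of the pair gave 333 bounds of at least 2-fold higher and 139 of at least 2-fold lower. Such a bound sets the bright array against the dimmest signal called above background on the other (26.3 for TCR 1 h and 26.6 for IFNβ 1 h + TCR 1 h) or against the dim probe's own signal where that is higher. The interferon-induced gene Ifi44 was at least 31.4-fold higher with IFNβ, with 826 against the floor of 15. Slc9a2, a sodium-proton exchanger, was at least 27.3-fold higher, the homeobox gene Dlx1 at least 14.1-fold and Apol9a at least 12.2-fold. A probe that kept the array's name Herc5 was at least 17.7-fold higher. The array gives that name also to the probe counted here as Herc6 (4.99), on the same chromosome, so they may not be separate genes. Dlx1 was at the floor after IFNβ 2 h, at 24.9 after 7 h, and at 369 with IFNβ and TCR. In the other direction Cabp1, a calcium-binding protein gene, was at least 13.3-fold lower with IFNβ, Cps1 at least 11.8-fold and Vash2 at least 11.7-fold. Cabp1, Cps1 and Vash2 were at 355, 313 and 312 after TCR 1 h and at 15 to 35.3 on every other array.

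The pair was set beside the IFNβ comparisons that share no array with it. On the arrays of IFNβ 2 h and 7 h the B cell markers summed to 42477 and 36049, against 13893 and 13519 in untreated cells, and the class II markers to 72661 and 51198, against 33574 and 33329. The part of these markers' cells in the comparisons was not tested. After IFNβ 2 h without TCR, 7.99% of 16544 genes were at least 2-fold higher than untreated and 4% lower. Over 16155 genes measured in both comparisons, 532 were at least 2-fold higher in both, which is 42% of the 1268 higher genes of the pair and 43.3% of the 1229 of IFNβ 2 h. Of the lower genes 93 were shared, 14.8% of 627 and 14.2% of 656. Pearson's r across these genes was 0.50 and Spearman's rho 0.29, as a description, since genes are not independent and the IFNβ 2 h array and 1 untreated array lay on the pair's slide. After IFNβ 7 h, 7.99% of 16514 genes were higher than untreated and 6.06% lower, and the pair shared 573 higher genes with it (45.1% of the pair's and 45% of the 7 h genes) and 129 lower ones (20.7% and 13%). At both times the shared part of the higher genes was the larger share of each list, and the 2 h and 7 h comparisons share their untreated arrays.

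**Figure D5:**
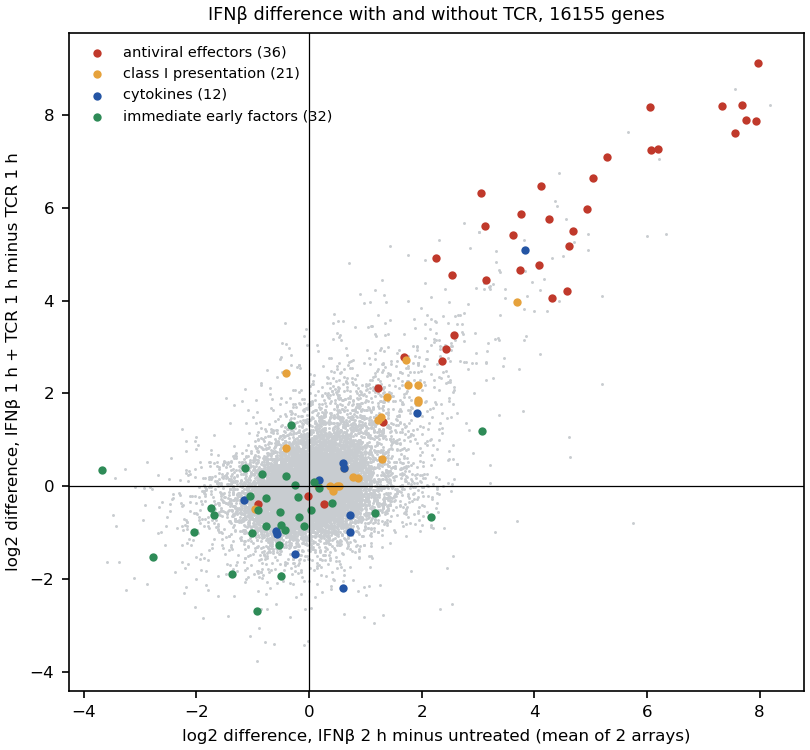
Log2 difference in the pair at TCR 1 h (y axis) against the log2 difference of IFNβ 2 h from the mean of the untreated arrays (x axis) for 16155 genes in grey, with the members of 4 lists in colour. Antiviral effectors lie high on both axes, and most of the coloured immediate early factors lie below 0 on the y axis; 12 of the 19 cytokines could be drawn, Il2, Csf2 and Il3 not among them.

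Of 408 genes at least 4-fold higher in the pair and measured on all these arrays, 258 were at least 2-fold higher after IFNβ for 2 h and for 7 h, and 71 were within 2-fold at both times. Of 58 genes at least 4-fold lower, 32 were within 2-fold at both times, 13 were lower at both and 2 higher at both. Over all genes, 7.99% were at least 2-fold higher and 4% lower after IFNβ 2 h, and 7.99% and 6.06% after 7 h. The share of all genes within 2-fold at both times was not counted, so the 71 and the 32 cannot be set against it. In the pair at TCR 6 h, 1.14% of 17660 genes were at least 2-fold higher with IFNβ and 1.99% lower. Over 16412 genes measured in both pairs, 124 were higher in both, 10.3% of the 1208 at 1 h and 69.7% of the 178 at 6 h. Lower in both were 33, 4.98% of 662 and 11.6% of 284. Of the 1208 genes higher at 1 h, 81 were lower at 6 h, more than the 33 lower in both. Of the 662 lower at 1 h, 3 were higher at 6 h. Over all 16412 genes, 284 were lower and 178 higher at 6 h. Most differences of the pair at 1 h were thus under 2-fold at 6 h, and whether the pairs differ could not be tested with 1 array a condition.

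A linear model (limma) over the 6 arrays outside the pair took the untreated arrays as 1 sample. It estimated 1 IFNβ difference shared by IFNβ 2 h, IFNβ 7 h and IFNβ 1 h + TCR 6 h. None of 19705 genes passed an adjusted p of 0.05 (0 genes). An unadjusted p under 0.05 was held by 1048, a share near the 0.05 that falls there when no gene differs. The fit had 2 residual degrees of freedom. On simulated data it recovered 31 of 100 genes changed by a log2 of 2 and 78 of 100 changed by 4, so changed genes can fail to pass. With the untreated arrays as 2 samples 13 genes passed, all higher. Ifit3 was estimated at 7.00 ± 0.47 (SE, adjusted p = 0.13), Isg15 at 5.54 ± 0.68 (adjusted p = 0.44) and Mx1 at 6.72 ± 1.17 (adjusted p = 0.67). Il2 was at -0.35 ± 0.39 and Xcl1 at 0.20 ± 0.24 (adjusted p = 0.92 for both). Of the 423 genes at least 4-fold higher in the pair, 367 had an estimate above 0 in these other arrays (median 1.26). Of the 89 at least 4-fold lower, 53 had one below 0 (median -0.12). Over all 17094 genes of the pair in the fit, 8982 estimates were above 0 and 7881 below 0 (median 0.02).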

How the data were processed

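The scanner files hold linear intensity that the authors made, per the file headers, with Agilent Feature Extraction 10.7.3.1 (9.5.3.1 per the submitters' processing notes), background-subtracted and detrended within each array. The deposited value table also holds intensity, each column being 1 array's processed signal times 1 factor, with the 75th percentile near 1500 and values below 15 set to 15. The columns of the 6 other arrays matched their own scanner file, and the 2 columns of the pair matched each other's. The naming and values of that deposited table were used, after taking log2; spots flagged as outliers and 1639 control spots of 45018 were left out, and repeated spots of a probe were averaged. No spot was saturated. On the pair's arrays the SD between repeated spots of a probe was 0.129 (TCR 1 h) and 0.126 (IFNβ 1 h + TCR 1 h).

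Of 41174 probes, 26783 were named through their accession in RefSeq's gene table and 14391 kept the file's name, and 3204 symbols differed from the file's. Probe coordinates are mm9, per the file headers. The probe with the highest mean over 8 arrays, well above background on at least 1, stood for a gene. A gene was called at 2-fold. The named genes are the 12 highest and 12 lowest with a readable name, the 5 largest bounds each way, the 3 largest differences of each list and a fixed set; a few further list members are given that were chosen after their values were seen. Some genes of the lists are not reported here. The members, 35 gene lists and alternatives were chosen with earlier results of these data known.

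A linear model of the 6 other arrays was made by limma 3.58.1 (R 4.3.3, with data.table version 1.17.8), with IFNβ and TCR 6 h as terms and Benjamini-Hochberg adjustment, over genes well above background on at least 2 of 8 arrays. The fit and the calling rule were tested on simulated data. Python 3.11.15, numpy 2.4.6, pandas 2.3.3 and matplotlib 3.10.9 did the rest. Promoter windows are RefSeq's, of build GRCm38.p6.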

Additional observations from a re-analysis of the deposited data

Results flagged for a closer look

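Among the named genes, the only ones searched for this, Spry1 and Crtam had opposite directions with IFNβ in 2 settings, with every array involved well above background. They were not alone among all 16155 genes measured in both settings. Of the 1268 genes higher in the pair, 12 were at least 2-fold lower after IFNβ 2 h, and of the 627 lower in the pair, 23 were higher. Over all these genes, 656 were lower and 1229 higher after IFNβ 2 h. Spry1 was -1.55 in the pair at TCR 1 h and 1.12 after IFNβ 2 h against untreated, and Crtam was -2.34 and 1.02. Each value rests on 1 array with IFNβ, and the difference between the settings was not tested.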

How the results depend on the processing

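Under the scanner files' naming of the pair, 715 genes were at least 2-fold higher and 1345 lower, 8 of the 136 genes highest at TCR 6 h were lower, and the antiviral median was -5.46. Every other sign of the pair turns by construction. With normexp background correction 1467 genes were higher and 7033 lower. That setting kept 517 of the 1345 higher calls and 436 of the 715 lower calls. The antiviral median was 4.77, and Cxcl9 (-0.60), Tnfsf4 (-0.89), Cd244a (-0.24), Lag3 (-1.57), Il15ra (-0.37) and Atf4 (0.10) changed sign. Beside these 6, 119 of the 132 named genes measured on both arrays moved by at least 0.20. On the TCR 1 h array 5 control spots had a local background of over 10 times the array's median, up to 104309. Without these spots, a setting added after seeing the data, 910 genes were higher and 490 lower, and the antiviral median was 5.12. It kept 894 of the 1345 higher calls and 458 of the 715 lower calls. No called value of the named genes or lists changed sign, but 47 of the 132 named genes moved by at least 0.20. Scaling to the median gave 1190 higher and 959 lower, quantile normalization 1344 and 739, the looser filter 1849 and 981, and the mean over all probes 1286 and 727, with no sign change of a called value. In the other 6 arrays, limma passed 13 genes with the untreated arrays as 2 samples and 0 with slide as a block in that setting, with quantile normalization or with no filter, and 0 to 0 when each array was left out in turn. No paired analysis was possible because only the untreated arrays carry replicate numbers. The pair has 1 array a condition, and dim genes have bounds only.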

Other observations

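Genes high after IFNβ alone and after the TCR alone had unlike differences in the pair. After TCR 1 h alone Cd274 was 5.11 and Socs1 2.46 in log2 above untreated, and after IFNβ 2 h alone 4.64 and 3.21. Added to the TCR, IFNβ gave differences of 0.63 and 0.06 for these genes. Cxcl10, at 2.61 after TCR and 6.00 after IFNβ 2 h, was 42.1-fold higher in the pair. Gadd45g, a stress gene chosen after its values were seen, was at 5.24 after TCR and 5.76 after IFNβ 2 h, and the pair gave -0.79. These are values of single arrays with no test.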
